A study of Rattus norvegicus with 4 samples.

Results

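The pancreatic lipases and colipase are the fat-digesting proteins of pancreatic juice, and 5 genes for them (Pnlip, Pnliprp1, Pnliprp2, Clps and Cel) were examined among the 26541 genes on the array. The members were the array probes that carry one of these symbols in the authors' tables or, failing that, by the accession of the probe. The rule found 5 probes, 1 for each gene, and for all 5 the symbol in the authors' tables and the symbol given by the accession were the same. The probes carry the accessions NM_013161 (Pnlip), NM_032081 (Pnliprp1), NM_057206 (Pnliprp2), NM_013139 (Clps) and NM_016997 (Cel).

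The RNA came from the pancreas of male Sprague-Dawley rats, put on purified diets at weaning, fed for 3 weeks and fasted overnight before death. Per the labels, the iron-deficient (FeD) diet held 5 ppm iron, the iron-adequate (FeA) diet 35 ppm and the iron-overloaded (FeO) diet 20275 ppm. RNA of 6 rats was combined into 1 pool per diet. Each of the FeD and FeO pools was hybridised together with FeA on 2 two-colour arrays that differ in which pool carried which dye. On array 1 of a comparison the diet pool was labelled with Cy5 (red) and FeA with Cy3 (green), and on array 2 the dyes were the other way round. Since the pools were the same on both arrays, a comparison has 1 replicate, the gap between its arrays is technical, and the diets themselves could not be tested. In whole pancreas, fewer cells of a type and less RNA per cell cannot be told apart.

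Acinar cells make up most of the exocrine pancreas and secrete the digestive enzymes. Pnlip encodes pancreatic triglyceride lipase, the main enzyme that cuts dietary triglycerides in the intestine. Clps encodes colipase, a small cofactor that lets this lipase work on fat droplets coated with bile salts. Pnliprp1 and Pnliprp2 encode proteins related to pancreatic lipase. The former has little known lipase activity, and the latter also cuts galactolipids and phospholipids and is known for its part in fat digestion in suckling animals. Cel encodes carboxyl ester lipase, an unrelated enzyme that bile salts activate and that also cuts cholesteryl esters.

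Pnlip, Pnliprp1 and Pnliprp2 lie next to each other on chromosome 1 in the same orientation, and Cel lies on chromosome 3. The 150 bases before the start of 4 of the 5 genes (RefSeq, rat build GRCr8, from the start site in that table, each printed 5′ to 3′ on the strand of the gene) are shown because these are the stretches where acinar transcription factors are known to act. Capitals mark matches, on either strand, to a set of motifs. They are TATAAA, the core promoter box, and CACCTG, the E-box of PTF1, the acinar complex built on Ptf1a. The other part of the PTF1 site is TTTCCC, the site of the factor Nr5a2 was searched as AAGGTCA, and that of the zinc finger factors Gata4 and Gata6 as GATAAG. The letters of the motifs were chosen with the sequences known.
Pnlip, chr1:267784460-267784609, + strand: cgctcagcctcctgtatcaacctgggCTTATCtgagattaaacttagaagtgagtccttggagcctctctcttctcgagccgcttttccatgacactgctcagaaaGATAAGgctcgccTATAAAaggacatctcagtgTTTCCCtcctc
Pnliprp1, chr1:267853877-267854026, + strand: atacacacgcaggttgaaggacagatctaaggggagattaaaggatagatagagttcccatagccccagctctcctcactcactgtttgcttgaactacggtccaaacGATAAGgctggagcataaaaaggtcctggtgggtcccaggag
Pnliprp2, chr1:267883756-267883905, + strand: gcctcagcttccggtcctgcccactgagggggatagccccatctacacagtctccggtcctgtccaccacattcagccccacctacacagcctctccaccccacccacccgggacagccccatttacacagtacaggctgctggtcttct
Cel, chr3:32289020-32289169, - strand: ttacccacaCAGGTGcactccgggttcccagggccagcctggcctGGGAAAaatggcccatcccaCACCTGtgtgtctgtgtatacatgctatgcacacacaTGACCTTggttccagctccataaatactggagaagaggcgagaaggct
Pnlip and Pnliprp1 share a GATAAG, which begins at base -44 and base -42 from their starts, and Pnlip holds a further match on the other strand. The Cel stretch holds the CACCTG match on both strands, a TTTCCC match and an AAGGTCA match, and the Pnliprp2 stretch holds none of the motifs. Over the 33469 promoters of the table, 8.0% hold TATAAA in this window, 9.56% CACCTG, 13.5% TTTCCC, 2.2% AAGGTCA and 3.66% GATAAG. A match describes letters in a window and does not show that a factor binds there.

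The members were among the brightest spots of every array, as plotted in the signals by gene and dye. Of all genes that were well above background (a criterion of the scanner software) in at least 1 pool, Pnlip ranked 2 by mean brightness in the FeD comparison and 7 in the FeO comparison, and Clps ranked 12 in both. Pnliprp1, Cel and Pnliprp2 ranked 30, 32 and 48 in the FeD comparison. The order of brightness is not an order of mRNA level, because probes differ in their binding. Over the 4 arrays, the Pnlip spot gave a red signal of 733610 to 760129 intensity units and a green signal of 250847 to 287456, over a background of at most 111. Pnliprp2, the dimmest member, gave 130655 to 203880 in red and 77559 to 94412 in green. Every member was bright enough that the software took both channels on all arrays from a second scan at low gain, scaled up to the first.

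**Figure D1:**
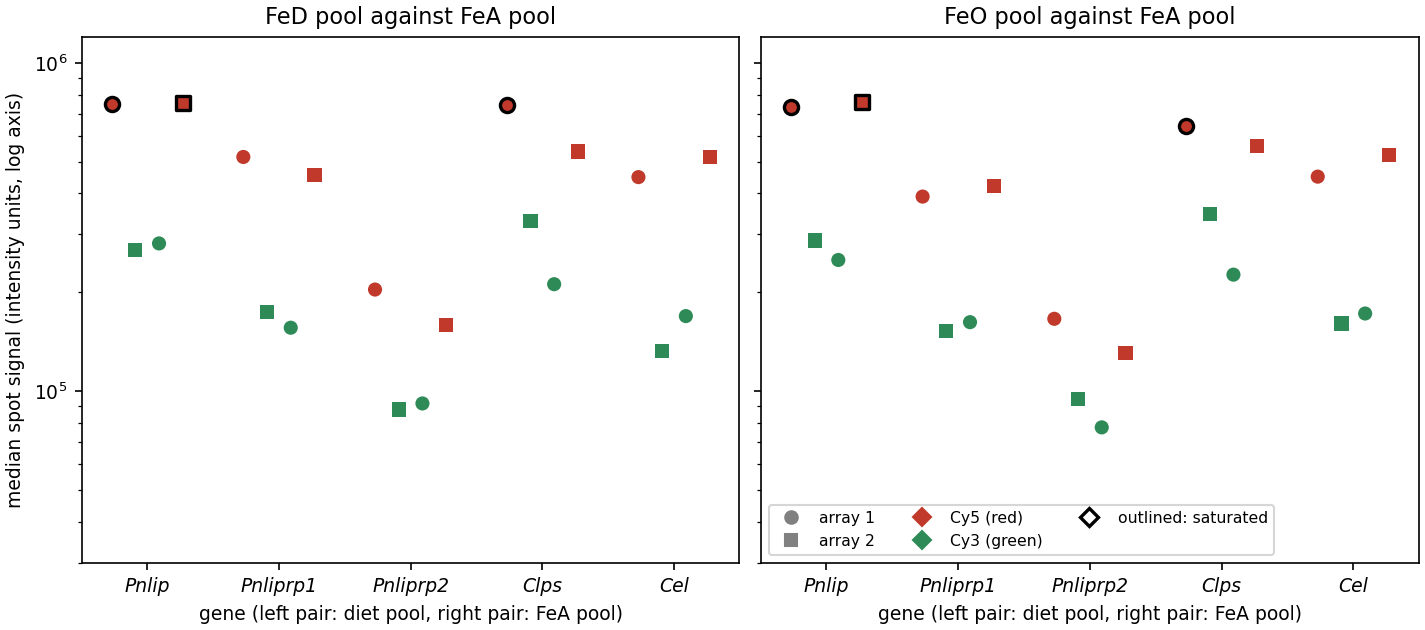
Median spot signal (intensity units, log axis) of the 5 members in the FeD comparison (left) and the FeO comparison (right), with the diet pool as the left pair and the FeA pool as the right pair of each gene, circles for array 1, squares for array 2, and the colour of the dye. Red lies above green for every gene and pool, and the outlined spots (Pnlip red on all 4 arrays, Clps red on array 1) were saturated.

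Saturation touched 2 of the 5 genes. The red channel of Pnlip was saturated on all 4 arrays, and that of Clps on array 1 of both comparisons, where red is the diet pool. No green channel was saturated. A saturated red signal is a lower limit, so before normalization a ratio of diet over FeA on array 1 is then at most too low and a ratio on array 2 at most too high. Loess shifts these ratios by a fitted amount, after which they bound nothing. All Pnlip ratios, and the Clps ratios of array 1, are therefore given as descriptions of saturated spots and not as estimates of the pools. Pnliprp1, Pnliprp2 and Cel were not saturated in any channel. One member spot, Clps on array 2 of the FeO comparison, was marked by the software as an outlier and was left out of the main values. The same saturation touched other acinar genes: 14 to 20 probes were saturated per array, 10 to 16 of them members or genes of a list of other acinar secretory genes, and 29 of the 100 brightest probes were members or genes of that list.

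In FeD against FeA, colipase was the 1 member that was higher on both arrays, and none of the 3 lipase genes free of saturation was shifted the same way on both arrays. All values below are log2 ratios of the diet pool over the FeA pool after loess normalization within each array, which removes a dye difference that depends on brightness. Clps had log2 ratios of 0.42 on array 1, where its red signal was saturated, and 0.63 on array 2, where it was not, with a mean of 0.53 ± 0.15 (SD of 2 technical arrays). With saturated spots left out, Clps had array 2 alone, at 0.62. Pnlip, saturated on both arrays, had ratios of 0.00 and -0.15, which do not show whether the pools were equal. Pnliprp1 gave 0.36 and -0.08 (mean 0.14) and Pnliprp2 gave -0.16 and 0.39 (mean 0.12), so each of the lipase-related genes changed sign with the dyes. Cel gave 0.04 and -0.66 (mean -0.31, or -19.3%), and its arrays lay 0.70 apart. In rank from the lowest, Clps held place 15507 and Cel place 414 of the 15755 genes that passed the filter on dim probes.

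These values are read against all genes of the comparison. Of the 15755 genes, 25.3% were higher on both arrays, against 1 of the 5 members, and 21.7% were lower on both arrays, against 0 of the 5 members. A mean ratio of at least 1 in size with the same sign on both arrays was seen in 0.355% of genes and one of at least 2 in 0.102%, and in 0 of the members. The median size of the mean ratio was 0.09 over all genes, so the mean ratios of Clps and Cel were larger in size than that of a typical gene. Among the 100 brightest genes other than the members the mean ratios ran from -0.24 to 0.35 (5th to 95th percentile), and Clps and Cel lay outside that range. limma's moderated test on the 2 arrays, an alternative that compares the pools and not rats, gave Clps an adjusted p of 0.295 and the other members an adjusted p of 1.0. The Benjamini-Hochberg adjustment was over the 17526 probes that passed the filter on dim probes.

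In FeO against FeA, Pnlip, Pnliprp1 and Cel were lower on both arrays after loess, but on neither normalization did a member reach a log2 ratio of 1 in the mean, and the means depended on the normalization, as given below. Cel had log2 ratios of -0.32 and -0.98 (mean -0.65 ± 0.47, SD of 2 technical arrays), which is -36.2% against FeA. Pnliprp1 had -0.42 and -0.73 (mean -0.58 ± 0.22, or -32.9%), with arrays closer together than those of Cel. Pnlip, saturated on both arrays, had -0.21 and -0.67. Cel and Pnliprp1 held places 189 and 246 from the lowest of 16487 genes. The 100 brightest genes other than the members had a median of -0.11, with 0.06 on array 1 and -0.20 on array 2. As a set they were thus lower on array 2 alone. Their 5th to 95th percentile, -0.74 to 0.33, held the means of Cel, Pnliprp1 and Pnlip.

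The remaining members did not share this pattern. Pnliprp2 had log2 ratios of -0.48 and 0.25 (mean -0.12) and changed sign with the dyes in FeO as in FeD. Clps had -0.24 on array 1, from a saturated red signal, and its spot on array 2 was left out as an outlier, so it had no unsaturated value in FeO. With that spot kept, array 2 gave 0.06 and the mean was -0.08. Over all genes, 24.1% were lower on both arrays, against 3 of the 5 members (2 without saturated spots), and 28.0% were higher on both, against 0 of the members. A mean of at least 1 in size was seen in 1.07% of genes and one of at least 2 in 0.176%, and in 0 of the members. limma's test on the 2 arrays gave adjusted p-values of 0.268 for Pnliprp1, 0.332 for Cel and, from saturated spots, 0.521 for Pnlip.

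**Figure D2:**
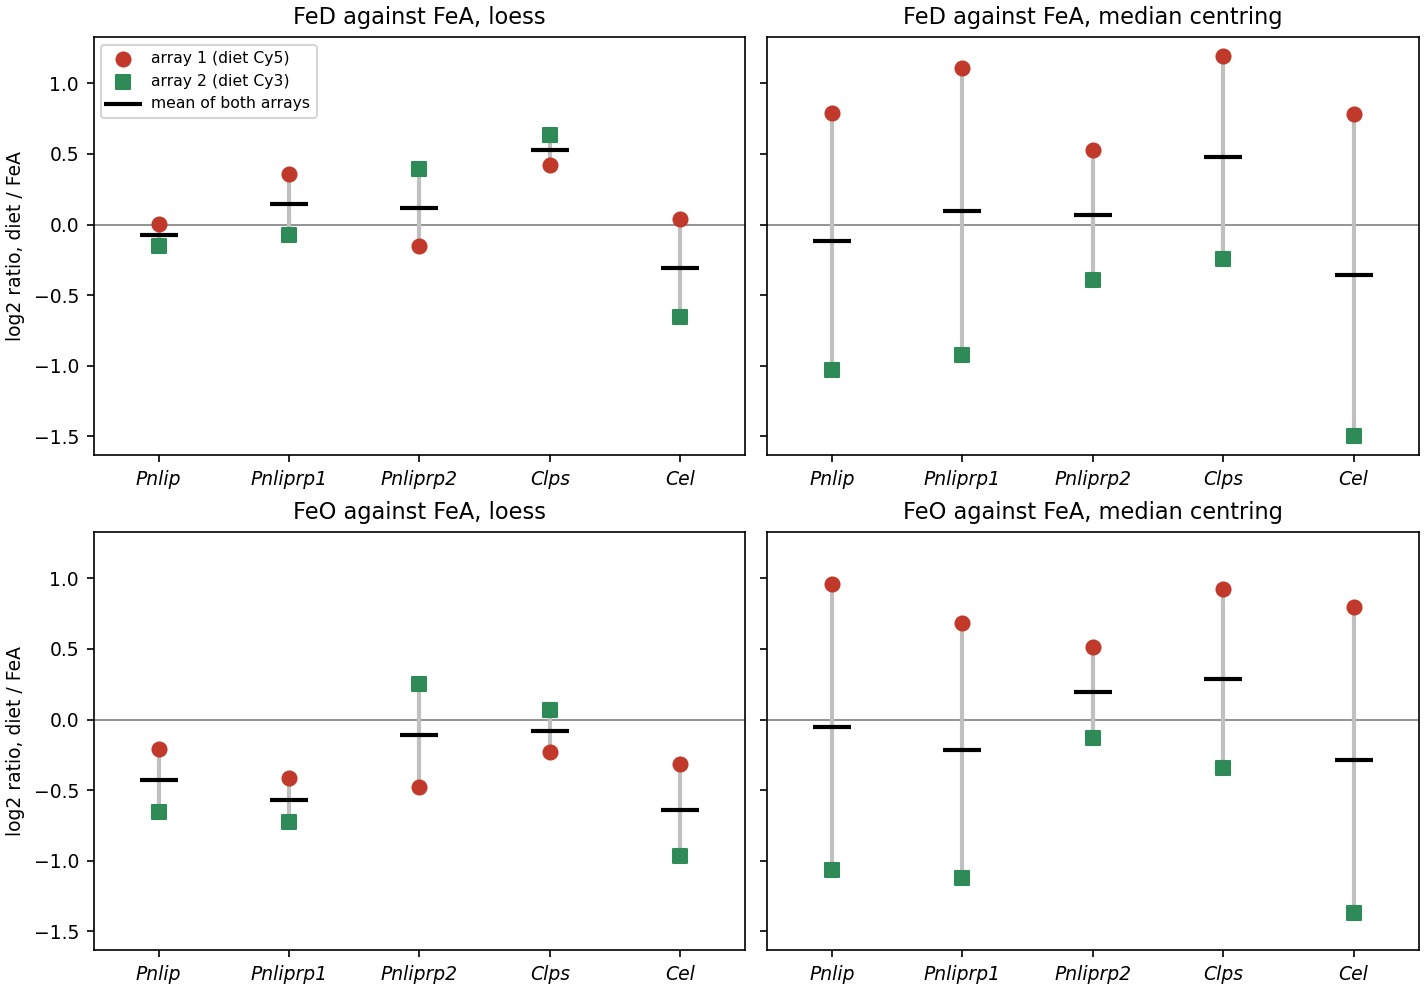
Log2 ratio of diet over FeA for the 5 members in FeD (top) and FeO (bottom), after loess (left) and after median centring (right), with outlier spots kept. Circles are array 1, squares array 2 and black bars their mean. After loess the arrays of a gene lie at most 0.73 apart, and after median centring every circle lies above 0 and every square below it, following the dye. All Pnlip points and the Clps circles rest on saturated red signals.

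Loess and median centring (which subtracts 1 value from all ratios of an array) treat the bright end differently, and in the FeO comparison this choice set the sign of several members. Before normalization, red exceeded green by a median log2 of 0.30 to 0.55 over all probes of an array, and by 0.47 to 1.96 at the members. Median centring therefore leaves a dye excess at the members. With outlier spots kept, a choice made after seeing the data, Cel had median-centred ratios of 0.78 and -1.50 on the FeD arrays, and of 0.80 and -1.37 on the FeO arrays, so single arrays followed the dye and only the mean of swapped arrays can be read. In FeD the means hardly depended on the choice: loess gave values 0.04 to 0.05 above median centring for all 5 genes, and Clps kept a median-centred mean of 0.48.

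In FeO the mean after loess minus that after median centring was -0.38 to -0.30 over the 5 genes. The median-centred means were -0.28 for Cel, -0.22 for Pnliprp1 and -0.05 for Pnlip, and positive for Pnliprp2 (0.19) and Clps (0.29). Thus Cel and Pnliprp1 had a mean below 0 under both, Pnlip was near 0 under median centring, and the sign of Pnliprp2 and of Clps turned. The scanner software's own processed signals, which carry a dye normalization of their own, gave FeO means of -0.59 for Cel, -0.55 for Pnliprp1, -0.49 for Pnlip, -0.10 for Pnliprp2 and -0.02 for Clps, close to the loess values.

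The dye curves of the arrays differed at the bright end. Among probes with a mean log2 intensity of at least 17, where 4 of the members lie on all arrays and Pnliprp2 on 1 array, the median red excess before normalization was 1.63, 1.56 and 1.63 on both FeD arrays and on array 1 of FeO, and loess removed a median of 1.37, 1.32 and 1.71. On array 2 of FeO the median excess was 1.31 over 32 probes and loess removed 0.73. On that array red is FeA, so red excess left after loess enters as a lower ratio of diet over FeA, whether it came from the dye or from the pool. On array 1 of FeO, where red is the diet pool, loess removed more than the median excess, which lowers the ratio too. Dye and pool cannot be told apart on a single array, and the source of the excess was not tested. There, 17 probes past this brightness were marked as outliers, against 0 on both FeD arrays and 3 on array 1 of FeO. A loess curve fitted without the members and the acinar secretory genes gave nearly the same result in FeO, with a median over the members of -0.46 against -0.44. Those genes are few among the probes that set the curve, so this does not show that the curve suits the members.

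**Figure D3:**
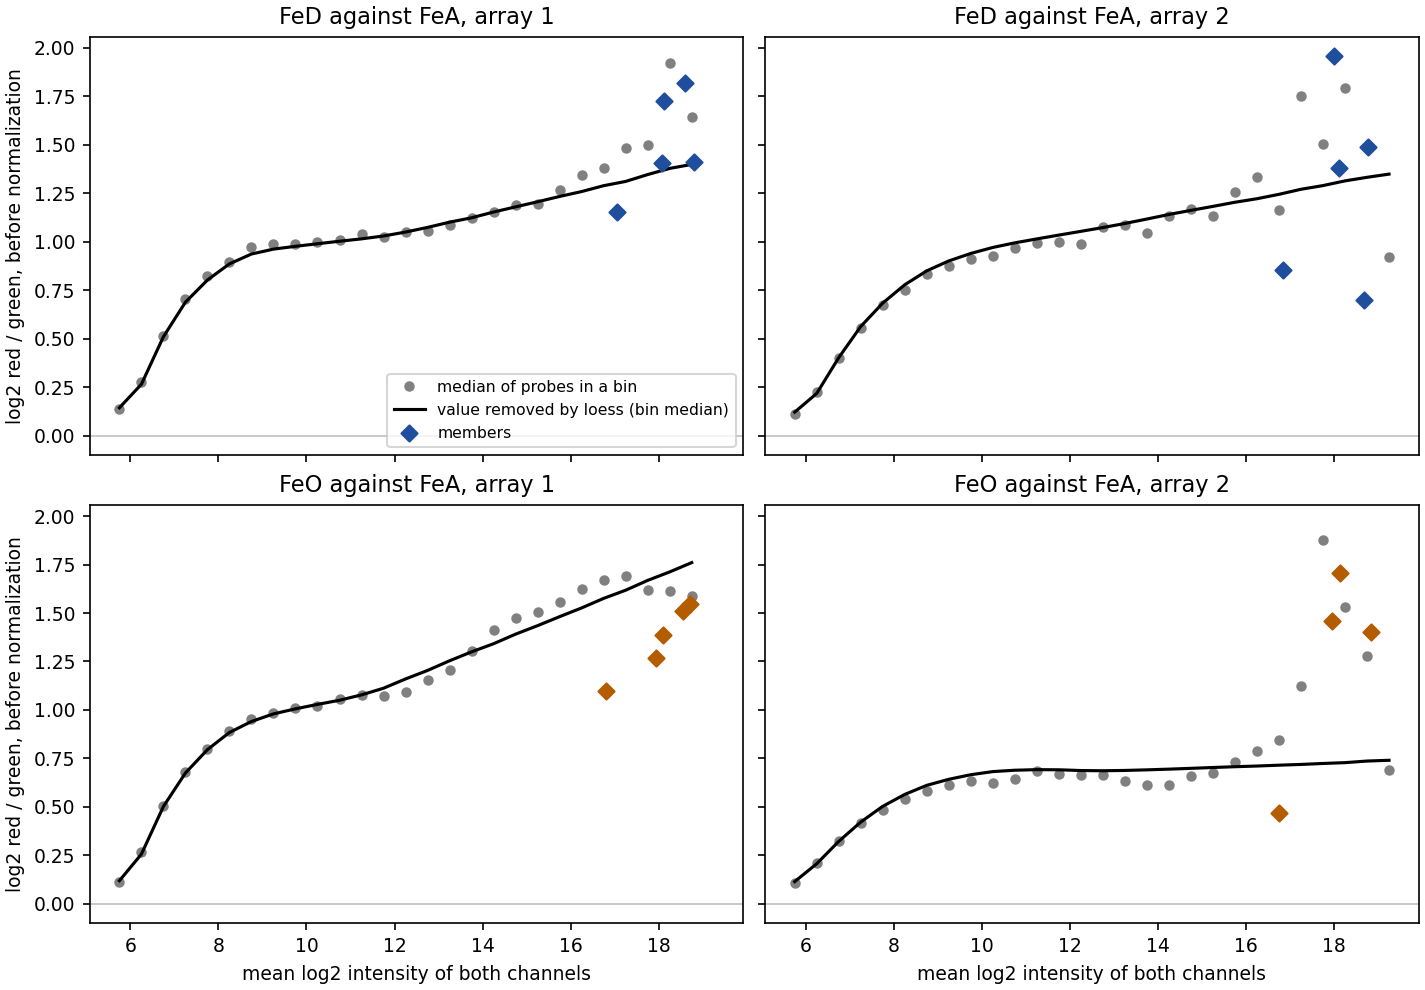
Log2 ratio of red over green before normalization against the mean log2 intensity of both channels, for each of the 4 arrays. Grey points are medians of probes in bins of intensity, the black line is the value that loess removed, and diamonds are the members (4 of the 5 on array 2 of FeO, where Clps was an outlier). On array 2 of FeO the line stays near 0.73 while most members lie between 1.40 and 1.71.

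Each gene had its own difference between the swapped arrays. With outlier spots kept, array 1 minus array 2 was 0.70 in FeD and 0.66 in FeO for Cel, and -0.55 and -0.73 for Pnliprp2. For Pnliprp1 it was 0.43 and 0.31, for Pnlip 0.16 and 0.45, and for Clps -0.21 and -0.30, where the values of Pnlip and Clps include saturated red signals. The pool in red was thus favoured by the Cel probe and the pool in green by the Pnliprp2 probe. Both comparisons share the FeA pool and the same probes. A gene's dye difference of this kind cancels in the mean of both arrays, and it widens the SD quoted beside that mean.

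Differences between members within an array do not depend on how the array is centred and little on loess. Pairs with Pnlip are left aside, since its red signal was saturated throughout. Of the 6 pairs among the other members, 4 in FeD and 2 in FeO had the same sign on both arrays under both loess and median centring. The share among other gene pairs was not computed, so these counts are not a result about the members. Most of these pairs contain Clps and are not separate observations. Clps exceeded Cel in both comparisons: the log2 ratio of Clps minus that of Cel was 0.38 and 1.29 on the FeD arrays (mean 0.83) and 0.08 and 1.03 on the FeO arrays (mean 0.56). Pnliprp1 minus Clps was -0.18 and -0.79 in FeO. Pnliprp1 minus Cel, in which no spot was saturated, was 0.32 and 0.58 in FeD but -0.10 and 0.25 in FeO. The pairs with Clps include its outlier spot on array 2 of FeO and its saturated red signal on array 1 of both comparisons.

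The other acinar secretory genes (25 detected of 29 listed, among them trypsinogens, chymotrypsinogens, elastases, carboxypeptidases and amylase) gave a yardstick of similar brightness. In FeD their median log2 ratio was 0.05, with 4 lower and 7 higher on both arrays (16.0% and 28.0%, against 21.7% and 25.3% of all genes). The highest were Ctrb1 (0.60), Cela1 (0.53) and Ctrl (0.53), a chymotrypsinogen, an elastase and a chymotrypsin-like protease, and the lowest were Prss3 (-0.54), Cpb1 (-0.23) and Try10 (-0.22), a trypsinogen, a carboxypeptidase and a further trypsinogen. Clps lay 0.27 and 0.70 above the median of this list on the FeD arrays, and 22 of the 25 genes had a lower mean. Cel stood at -0.11 and -0.59 from it, and 1 of the 25 genes, Prss3, had a lower mean. Only 11 of the 25 genes were not saturated on any FeD array. Against the median of those 11, Clps lay 0.42 and 0.70 above and Cel stood at 0.04 and -0.59, so the sign of Cel on array 1 turned.

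In FeO the acinar secretory genes had a median of -0.21 after loess, but of 0.11 after median centring with outlier spots kept. The direction of the list's median thus turned with the normalization, as it did for part of the members. After loess, 8 genes of the list were lower and 3 higher on both arrays (32.0% and 12.0%, against 24.1% and 28.0% of all genes). Prss1, Prss3b, Ctrl, Cela2a, Cela3b, Cpa1, Gp2, Spink1 and Erp27 had a value on 1 array alone, so they could not count either way. The lowest were Prss3 (-2.28), Try10 (-0.74) and Cela3b (-0.61, on 1 array), and the highest Spink3 (0.62), Prss1 (0.32, on 1 array) and Cuzd1 (0.31). Within the arrays and with outlier spots kept, Cel stood at -0.12 and -0.62 from the list's median after loess and at -0.11 and -0.61 after median centring, with 1 of 25 genes lower, but at 0.10 on array 1 of the processed signals. Pnliprp1 stood at -0.22 and -0.37 both after loess and after median centring, and at -0.029 and -0.54 with the processed signals. Against the 12 genes not saturated on any FeO array, Cel stood at -0.080 and -0.75 after loess but at 0.038 on array 1 after median centring and 0.23 with the processed signals. Against the same 12 genes, Pnliprp1 stood at -0.18 and -0.50 after loess and at -0.076 and -0.52 after median centring, but at 0.10 on array 1 of the processed signals. Trypsinogen and lipase genes belong to families of similar sequence, and the binding of a probe to related mRNAs was not tested.

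FeO and FeD can be set side by side at the same dye orientation, each over the FeA pool, which takes the probe's own dye difference out. This contrast was added with the values known. After loess with outlier spots kept, all 5 members were lower in FeO than in FeD at both orientations, as were 32.9% of the 15316 genes measured in both. FeO minus FeD was -0.77 and -0.65 for Pnliprp1 (mean -0.71), -0.65 and -0.57 for Clps (mean -0.61), -0.21 and -0.50 for Pnlip, -0.35 and -0.31 for Cel, and -0.32 and -0.14 for Pnliprp2. The acinar secretory genes had a median of -0.36, with Cel near it and Pnliprp1 below it. The differences of Pnlip, and that of Clps on array 1, are between saturated signals and were not placed against the list. That of Clps on array 2 includes its outlier spot of FeO, so neither Clps difference is free of a flag. After median centring, 2 of the 5 members were lower at both orientations, against 24.5% of genes: Pnliprp1 (-0.42 and -0.20) and, from the same flagged spots, Clps (-0.27 and -0.10). With the processed signals Pnliprp2 stood at -0.37 and 0.011, so not all 5 members were lower at both orientations. Both pools were measured against the same FeA pool in separate hybridisations, and no test of FeO against FeD was made.

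**Figure D4:**
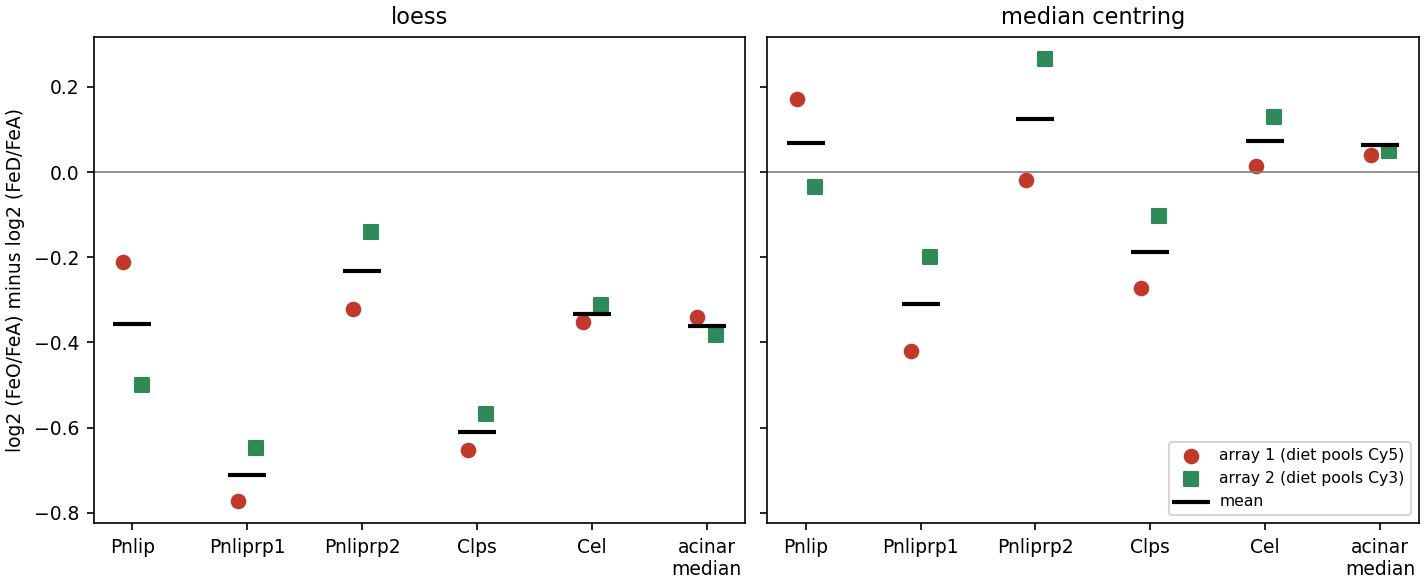
Log2 ratio of FeO over FeA minus log2 ratio of FeD over FeA for the 5 members and for the median of 25 acinar secretory genes, after loess (left) and median centring (right), with outlier spots kept. Circles are array 1, squares array 2 and bars their mean. All members lie below 0 after loess, and Pnliprp1 and Clps alone have both points below 0 after median centring. All Pnlip points and the Clps circles rest on saturated red signals, and the Clps squares on an outlier spot of FeO.

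Other lipases and their partners, most of which act outside the gut lumen, formed a list of 22 genes, of which 17 were detected in FeD and 18 in FeO. Lipc, Lipg, Lipi, Lipf and Plb1 did not pass the filter in FeD. In FeD the median was 0.04, and 4 genes were lower and 4 higher on both arrays (23.5% each, against 21.7% and 25.3% of all genes). The highest were Gpihbp1 (0.32), which anchors lipoprotein lipase in capillaries, Abhd5 (0.22), the coactivator of adipose triglyceride lipase, and Mgll (0.20), monoglyceride lipase. The lowest were G0s2 (-0.32), an inhibitor of adipose triglyceride lipase, Pnpla2 (-0.28), which encodes that lipase, and Nceh1 (-0.25), a cholesteryl ester hydrolase.

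In FeO most of these genes were higher: 11 of 18 were higher and 1 lower on both arrays, against 28.0% and 24.1% of all genes. The median was 0.19 after loess and 0.21 after median centring. Lipc and Pnpla3, both among the 11, passed the filter through the FeO pool alone, so the count is partly set by the filter. Pnpla2 had log2 ratios of 1.44 and 1.20 (mean 1.32) and Ces1d, a carboxylesterase of fat and liver, 1.43 and 1.19 (mean 1.31). Gpihbp1 had 0.76 and 0.74. The lowest were Lipa (-0.12), the lysosomal acid lipase, Lmf1 (-0.08), which helps lipases fold, and Nceh1 (-0.06). Adipocyte markers were higher in FeO as well, with a larger median. Of 9 detected, 8 were higher in FeO on both arrays, against 28.0% of all genes, with a median of 1.83 (Cfd 2.30, Car3 2.14, Adipoq 2.07). The summed normalized signal of these markers was 40655 to 41355 in FeO against 11324 to 12345 in FeA. All 9 were well above background in both pools. Their part in these ratios, or in the lower ratios of the pancreatic lipases, was not tested. In FeD the same markers had a median of -0.22, with summed signals of 8482 to 9722 against 9415 to 11688. There 6 of the 9 were lower and 1 higher on both arrays, against 21.7% and 25.3% of all genes, while the other lipases had a median of 0.04.

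**Figure D5:**
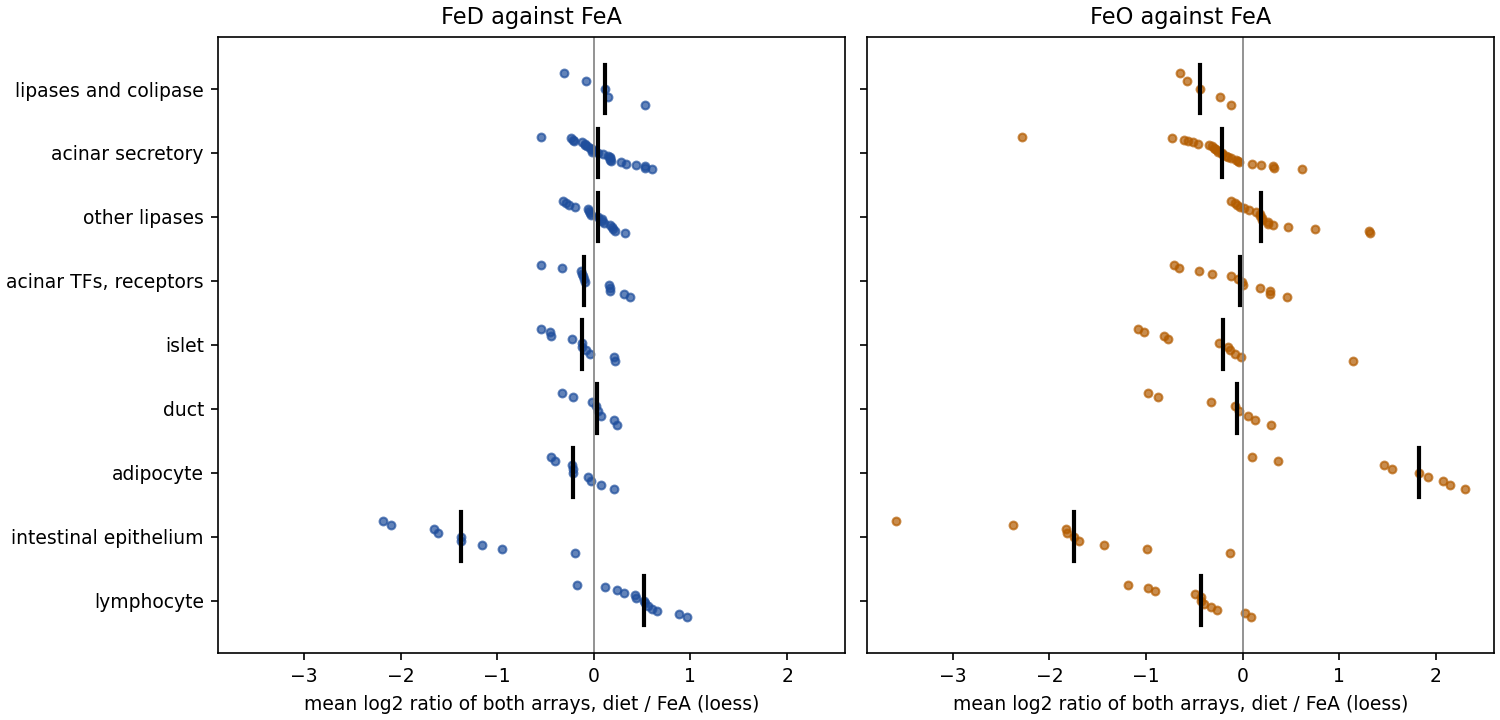
Mean log2 ratio of both arrays (loess) for the detected genes of each list, in FeD (left) and FeO (right). Points are genes and black bars medians. The lipases and colipase have medians of 0.12 and -0.44, adipocyte markers of -0.22 and 1.83, and intestinal epithelium markers of -1.38 and -1.74.

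Markers of other cells differed between the pools as well, and their part in the lipase ratios was not tested. Lymphocyte markers had a median of 0.52 in FeD, where 11 of 13 were higher on both arrays, against 25.3% of all genes. The summed signal was 5568 to 5794 against 3527 to 3856 in FeA. In FeO the median was -0.43, and 9 of 11 were lower, against 24.1% of all genes (2251 to 2477 against 3547 to 3586). Cd2 and Ms4a1 passed the filter in FeD through the FeD pool alone. In FeO, Cd3e, Cd5 and Cd8a passed through the FeA pool alone, so these counts are partly set by the filter. Intestinal epithelium markers had medians of -1.38 and -1.74, with 8 of 9 detected lower on both arrays in each comparison, against 21.7% and 24.1% of all genes. The summed signals were 2681 to 2768 in FeD and 1994 to 2214 in FeO, against 7226 to 7569 in FeA. Of these markers, Cdh17 and Agr2 passed the filter through the FeA pool alone in both comparisons. The extremes were Lgals4 (-2.18 and -3.59) and Vil1 (-0.19 and -0.13), and Slc5a1 and Mep1a of that list did not pass the filter, nor did the lymphocyte genes Cd2 and Ms4a1 in FeO. Islet markers had medians of -0.12 and -0.20 (in FeO from Ppy at -1.08 to Gcg at 1.14), and duct markers of 0.03 and -0.06 (in FeO from Krt19 at -0.98 to Cftr at 0.29). Against the labelled tissue, every acinar secretory gene and every islet marker with a named probe was detected in both comparisons.

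Transcription factors and receptors of acinar cells had a median of -0.10 in FeD and of -0.02 in FeO. In FeD 3 of 12 were lower and 4 higher on both arrays, against 21.7% and 25.3% of all genes. In FeO 3 were lower and 3 higher, against 24.1% and 28.0% of all genes, so the list had no common direction. Ptf1a, the factor that drives many digestive enzyme genes, had log2 ratios of -0.30 and -0.36 on the FeD arrays, and of -0.76 and -0.66 on those of FeO. Xbp1, a factor of the secretory pathway, gave -0.08 and -1.01 in FeD and -0.33 and -0.98 in FeO. Nr5a2 was higher on both arrays in both (means 0.31 and 0.29), Gata4 had means of 0.38 and 0.46, mostly from array 2, and Rbpjl, the partner of Ptf1a in acinar cells, changed sign with the dyes. Cckar, the cholecystokinin receptor that triggers enzyme release, had means of 0.17 and 0.29, mostly from array 2. Chrm3, a muscarinic receptor for acetylcholine, had means of -0.13 and -0.46 but changed sign with the dyes in both comparisons. Its ratios were 0.40 and -0.65 in FeD, and 0.10 and -1.01 in FeO.

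The genes whose 4 ratios were most like those of each member were listed by the root mean square difference after loess. With so many genes and so few values, a close match outside the members is near certain. That the nearest genes were not members therefore says nothing of the members. The ratios of single arrays also hold each probe's dye difference, so a small distance is not a measure of shared expression. Among the 13964 other genes compared, the nearest to Pnlip was Cks2 at 0.05, ahead of a transcript named ENSRNOT00000035711 on the array (0.06) and Ormdl2 (0.07), whereas Pnliprp1 lay at 0.21 and Cel at 0.30 from Pnlip, whose ratios come from saturated spots. The nearest to Pnliprp1 were Adtrp (0.09), RGD1564447 and Myzap (0.10 each). Those of Pnliprp2 were RGD1559532, Tor2a and Dnajb1 (0.05 each), and those of Cel were Vegfc (0.09), Mrpl18 (0.10) and Hadh (0.12). Over the 3 arrays with a Clps value, the nearest of 13984 genes was Ptpn22 (0.02), followed by Wipf1 and Psmb9 (0.03 each). Pnliprp2 and Cel were the least alike of the member pairs, at 0.82, and the dye differences of their probes had opposite signs.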

How the data were processed

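The authors deposited the intensity values of 4 two-colour Agilent arrays, which Agilent's Feature Extraction software (version 10.1.1.1) wrote, along with saturation and outlier flags. Median spot and background signals are uncorrected. The processed signals carry the software's background correction and dye normalization. The fold changes, p-values and q-values of the authors' tables were not used, apart from the gene symbols.

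In R 4.3.3 with limma 3.58.1, background was corrected by normexp (offset 50) and ratios were normalized by loess within each array. Outlier spots were left out, the swapped array was turned, and both arrays were averaged. A probe entered when it was well above background on both arrays in at least 1 of the 2 diets, and a gene was the mean of its probes that passed. Saturated spots were kept. The steps were tested on simulated data. Tables used Python 3.11.15.

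Of 30367 probes, 18004 were named by accession from a reference table, 4945 by the authors' symbols alone and 7418 by the array. Genes named are all members, the 3 highest and 3 lowest of each list (for marker lists the extremes alone) and the 3 nearest to each member, and others were chosen after their values were seen. The members and lists were chosen with earlier results of these data known. Alternatives were other normalizations, background settings, filters, single arrays, and limma or the methods' t-test on the pools. The number of arrays limits the precision.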

Additional observations from a re-analysis of the deposited data

Results flagged for a closer look

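Clps was above 0 on both FeD arrays and below 0 on the single FeO array used. The means of Pnliprp1 (0.14 and -0.58) and Pnliprp2 (0.12 and -0.12) also turned sign between the comparisons, but their FeD arrays did not share a sign. The mean Clps log2 ratio was 0.53 in FeD (0.42 and 0.63 on the arrays) and -0.24 in FeO, on array 1 alone, and its red signal was saturated on array 1 of both comparisons. The difference between the comparisons was not tested. With the outlier spot of array 2 kept, that array gave 0.06 in FeO and the mean was -0.08, and with median centring the FeO mean was 0.29, so the opposite sign in FeO rests on 1 array and on the normalization.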

How the results depend on the processing

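In FeD against FeA the median log2 ratio of the 5 members was 0.12, and with either array left out it lay between -0.075 and 0.040. The number of members lower on both arrays was 0, 1 with the processed signals, and 1 to 3 with 1 array left out. No member passed a log2 ratio of 2 under any alternative, but the methods' t-test, in place of the size criterion, put 1 member (Clps) under its threshold, and 0 after Benjamini-Hochberg adjustment. In FeO against FeA the median was -0.44, -0.051 with median centring, -0.051 with median centring and outlier spots kept (an alternative chosen after seeing the data), 0.073 with no normalization within an array, and -0.70 to -0.32 with 1 array left out. The number of members lower on both arrays was 3, 0 with median centring, 0 with that and outlier spots kept, 0 with no normalization, and 3 to 5 with 1 array left out. The counts of 0 are fixed by the dye excess that these settings leave on each array, and they say nothing of the pools. The cause of the shift in the median was not tested. Of the single members, Clps in FeD and Pnliprp1 and Cel in FeO kept the sign of their mean under all alternatives run, in the ranges 0.42 to 0.63, -0.73 to -0.09 and -0.98 to -0.16. Without saturated spots Pnlip had no value in either comparison and Clps none in FeO, where the median over the 3 genes left was -0.58 and 2 were lower on both arrays. No paired analysis was possible because each comparison has 1 pool per diet and the arrays already pair the pools. The depth of an array is not a count, and saturation limits what can be read of Pnlip and Clps.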
